A study of Mus musculus with 24 samples.

Results

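The genes described here are 40 named genes of the cell division cycle and of DNA replication, taken as a list of symbols. All 40 were found among the 23420 genes of the expression tables. A gene was used in a table where the mean of at least 1 group reached 1 CPM (reads of the gene scaled to a fixed library total), which kept 39 of the 40 in the table of 24 h treatments, where Ccne2 stayed under that level, and all 40 in the table of IL-4 pulses. By role, the list holds 5 D-type cyclins and their kinases, 3 kinase inhibitors, 2 E2F factors, 3 genes of the cyclin E and Cdk2 kinase, 8 genes of origin licensing, 7 genes of the replication fork and of nucleotide supply, and 12 genes of mitosis and its approach.

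The samples were 24 RNA-seq libraries of macrophages grown for 6 days from bone marrow of male C57BL/6 mice of 3 months in the presence of M-CSF, in 12 groups of 2. One experiment treated cells for 24 h with vehicle (a DMSO and ethanol mixture), with GW9662, an irreversible antagonist of the nuclear receptor PPARγ, with IL-4 and vehicle, or with IL-4 and GW9662. The other used wild-type and Pparg knockout cells in 4 states each: control, 3 h of IL-4, 24 h of IL-4 followed by washing and 24 h without it, and the same pretreatment followed by a second 3 h of IL-4. The labels give IL-4 at 20 ng/µl, give no dose for GW9662, and say that control cells were washed and kept in medium as well. They name neither the deleted part of Pparg nor the driver of the deletion, and it is not stated that both samples of each group were from different mice, so p-values measure only the spread between these samples, which may be technical.

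The deposited columns are means of 2 samples, from which the whole read counts of both libraries were separated arithmetically. The libraries are called deeper and shallower here, since the labels' replicate numbers could not be tied to them. Reads in genes ranged from 15068824 to 29151478 per library in the 24 h experiment and from 5444413 to 16377265 in the pulse experiment. Of 10 listed macrophage markers 9 were found and none was at 0 in any group. The lowest group means were 3718 CPM for Csf1r and 1262 CPM for Cd68, while others were lower with IL-4: at 24 h Cd14 read 571 CPM with vehicle and 60.7 CPM with IL-4, and Fcgr1 530 and 90.1 CPM. The T cell gene Cd3e was at most 0.0852 CPM in any group mean, while Cd4 read 34.5 CPM with vehicle and 1.62 CPM with IL-4. Pparg itself had a mean of 21.1 CPM in knockout and 23.0 CPM in wild-type controls, 27.6 and 24.7 CPM after the first 3 h, 26.6 and 20.8 CPM after washout and 40.9 and 34.0 CPM after the second 3 h. Its mean was thus higher in the knockout in 3 of 4 states, which checks nothing unless the counted part is the deleted one. Lyz2, the lysozyme gene of macrophages, lay between 11.8 and 44.2 CPM in the 8 knockout libraries and between 21966 and 30727 CPM in the wild-type group means.

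Library differences outside the labels touch some members. Reads of genes with near-identical copies were counted low in some libraries and high in others: all 8 knockout libraries were of the low kind and 7 of the 8 wild-type libraries of the high kind. Of the members, Ccnb1 (42.2% of its 50-base words occur in other genes), Pcna (32.6%) and Mcm7 (26%) are open to this, and the others share at most 8.33%. The deeper wild-type library of the second 3 h of IL-4 held fibroblast genes (summed level of 6 markers 1083 CPM, against at most 9.83 CPM in every other library but its partner, at 37.5 CPM). That deeper library also had the highest summed neutrophil markers of the pulse experiment, at 284 CPM. Its partner read 81.1 CPM, and every other library of that experiment at most 139 CPM. In that partner, genes with short transcripts were raised and those with long transcripts lowered (medians of 0.42 and -0.60 on the log2 scale for the bin of genes with the shortest transcripts and the bin with the longest). Wild-type controls leaned the other way, at -0.14 and 0.092 in the deeper and -0.12 and 0.096 in the shallower library. Knockout controls read 0.0029 and 0.027, and 0.0038 and 0.0044.

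A cell enters the cycle when growth factor signals raise D-type cyclins, whose kinases Cdk4 and Cdk6 relieve the block that the RB protein puts on E2F factors. E2F factors then drive genes of the G1 to S transition: cyclin E, the licensing factors Cdc6, Cdt1 and the Mcm2 to Mcm7 helicase, and enzymes that supply nucleotides. Genes of mitosis follow later, with cyclin B and Cdk1, the Aurora and Polo kinases and the checkpoint genes, and Cdkn1a and Cdkn1b, the inhibitors p21 and p27, hold the kinases back. Macrophages grown in M-CSF divide for some days in culture before they stop.

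Promoters are shown for 2 licensing genes and 2 mitotic genes, because these classes separated after IL-4 pretreatment and washout. RefSeq (GRCm38.p6) gave 39 promoter windows for 34 of the 40 members, each used from 250 bases before to 30 bases after the start. Capitals mark matches on either strand to TTGGCGC or TTCCCGC (E2F-type letters), to CCAAT (bound by NF-Y) and to TTTGAA (the letters of the cell cycle homology region), and neighbouring matches can share letters. Mcm5 lies at chr8:75109259-75109538 (+ strand), Mcm6 at chr1:128359676-128359955 (- strand), Ccnb2 at chr9:70421525-70421804 (- strand) and Cdk1 at chr10:69352883-69353162 (- strand), all shown 5′ to 3′ on the gene's strand.
Mcm5: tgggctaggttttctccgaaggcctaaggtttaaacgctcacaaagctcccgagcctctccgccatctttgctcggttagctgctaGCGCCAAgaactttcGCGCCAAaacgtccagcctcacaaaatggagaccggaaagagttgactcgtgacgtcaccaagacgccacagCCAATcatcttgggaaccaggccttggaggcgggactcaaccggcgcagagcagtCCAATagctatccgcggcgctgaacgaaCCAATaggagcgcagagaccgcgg
Mcm6: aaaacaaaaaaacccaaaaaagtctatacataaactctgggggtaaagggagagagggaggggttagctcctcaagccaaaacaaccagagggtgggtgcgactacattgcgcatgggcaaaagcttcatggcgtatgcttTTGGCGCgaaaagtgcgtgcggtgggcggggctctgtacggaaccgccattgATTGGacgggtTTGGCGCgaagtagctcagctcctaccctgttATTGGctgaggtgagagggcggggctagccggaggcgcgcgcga
Ccnb2: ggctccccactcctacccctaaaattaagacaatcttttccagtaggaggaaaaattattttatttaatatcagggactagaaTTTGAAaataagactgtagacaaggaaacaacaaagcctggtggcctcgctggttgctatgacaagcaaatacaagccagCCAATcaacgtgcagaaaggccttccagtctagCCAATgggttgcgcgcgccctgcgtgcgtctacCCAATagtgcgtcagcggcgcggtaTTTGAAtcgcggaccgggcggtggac
Cdk1: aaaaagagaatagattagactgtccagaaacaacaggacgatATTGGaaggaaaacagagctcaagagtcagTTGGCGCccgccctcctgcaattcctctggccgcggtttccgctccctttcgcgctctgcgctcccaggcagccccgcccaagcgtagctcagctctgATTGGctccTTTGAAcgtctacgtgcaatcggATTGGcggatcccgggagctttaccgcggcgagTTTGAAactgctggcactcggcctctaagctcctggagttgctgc
The E2F-type letters were in 7 of the 8 windows of licensing genes (87.5%; 7 genes), in 4 of the 10 of mitotic genes (40%) and in 6.33% of all 32851 windows. TTTGAA was in 1 of the 8 licensing windows, in 5 of the 10 mitotic windows (50%) and in 17.2% of all. CCAAT was in 9 of the 10 mitotic windows (90%), in 6 of the 8 licensing windows and in 36.1% of all. These are counts of letters, not of bound sites.

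Cells of the 24 h experiment held little mRNA of mitotic genes. Mki67, the proliferation antigen, was between 7.44 and 12.8 CPM in its 8 libraries and between 335 and 637 CPM in the 16 libraries of the pulse experiment. Top2a, the topoisomerase of dividing cells, lay between 6.36 and 17.1 CPM in the first and between 360.3 and 601 CPM in the second. The tables were normalized separately, and no test was made across them. In bulk RNA, fewer dividing cells and less of these mRNAs per cell cannot be told apart.

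After 24 h, IL-4 raised Ccnd1, Mcm5, Ccne1 and other genes of the G1 to S transition and lowered Cdkn1b and Ccnd3. By limma with Benjamini-Hochberg adjustment over all genes, 9 members rose and 2 fell of 38 tested, against 9.8% of all 11140 tested genes higher and 8.39% lower (18.2% called in all). The median log2 ratio was 0.41 over the members and -0.005 over all genes. By role, 2 of 5 genes of the cyclin D group rose and 1 fell, and 1 of 3 inhibitors fell. Of the E2F factors 1 of 2 rose, of the cyclin E group 1 of 2 tested, of the licensing genes 2 of 8 and of the fork and nucleotide group 3 of 7. Of 11 mitotic genes, 0 passed, while 1 had an unadjusted p below 0.05 and limma-voom gave 0. The median log2 ratio was 0.38 over the 8 licensing genes and 0.33 over the 11 mitotic genes, of which 10 lay above 0, and a difference between the roles was not tested.

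Ccnd1, the cyclin that answers growth factors, stood at 35.1 and 39.2 CPM in the vehicle libraries and at 105 and 95.6 CPM with IL-4. Its log2 ratio was 1.41 (SE 0.16, n = 2 per group, limma adjusted p = 0.0012), and the groups lay far apart. Mcm5, a helicase subunit, rose from 16.1 and 16.4 to 46.5 and 60.04 CPM (log2 ratio 1.65, SE 0.17, limma adjusted p = 0.00069). Ccne1, which with Cdk2 triggers S phase, was low throughout and rose from 1.5 and 1.59 to 5.89 and 7.18 CPM (1.57, SE 0.32, limma adjusted p = 0.014).

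The other genes that rose were Ung (1.33), which removes uracil from DNA, Tk1 (1.30), the thymidine salvage kinase, Rrm2 (1.24), the regulated subunit of ribonucleotide reductase, Mcm2 (1.14), E2f2 (0.68) and Cdk4 (0.62). Rrm2 was at 2.02 and 2.06 CPM with vehicle and 6.12 and 6.21 CPM with IL-4. The values of both groups are low but did not overlap. Pcna, the sliding clamp of the fork, read 42.7 and 69.9 CPM with vehicle and 302 and 127 CPM with IL-4, which did not pass (log2 ratio 1.91, SE 0.64, limma adjusted p = 0.096). In each of these groups the higher Pcna value came from the library of the high counting kind.

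Cdkn1b fell with IL-4, from 53.3 and 48.2 to 25.1 and 19.8 CPM (log2 ratio -1.14, SE 0.18, limma adjusted p = 0.0047). Ccnd3, a cyclin of the same class as Ccnd1, fell from 77.1 and 75.5 to 33.0 and 42.5 CPM (-1.0, SE 0.17, limma adjusted p = 0.0061). So the D cyclins parted, with Ccnd1 up and Ccnd3 down, and Ccnd2 low at 2.48 and 2.12 against 2.58 and 1.87 CPM. Mki67 read 9.28 and 11.01 CPM with vehicle and 12.8 and 11.4 CPM with IL-4 (0.23, SE 0.22, limma adjusted p = 0.54).

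**Figure D1:**
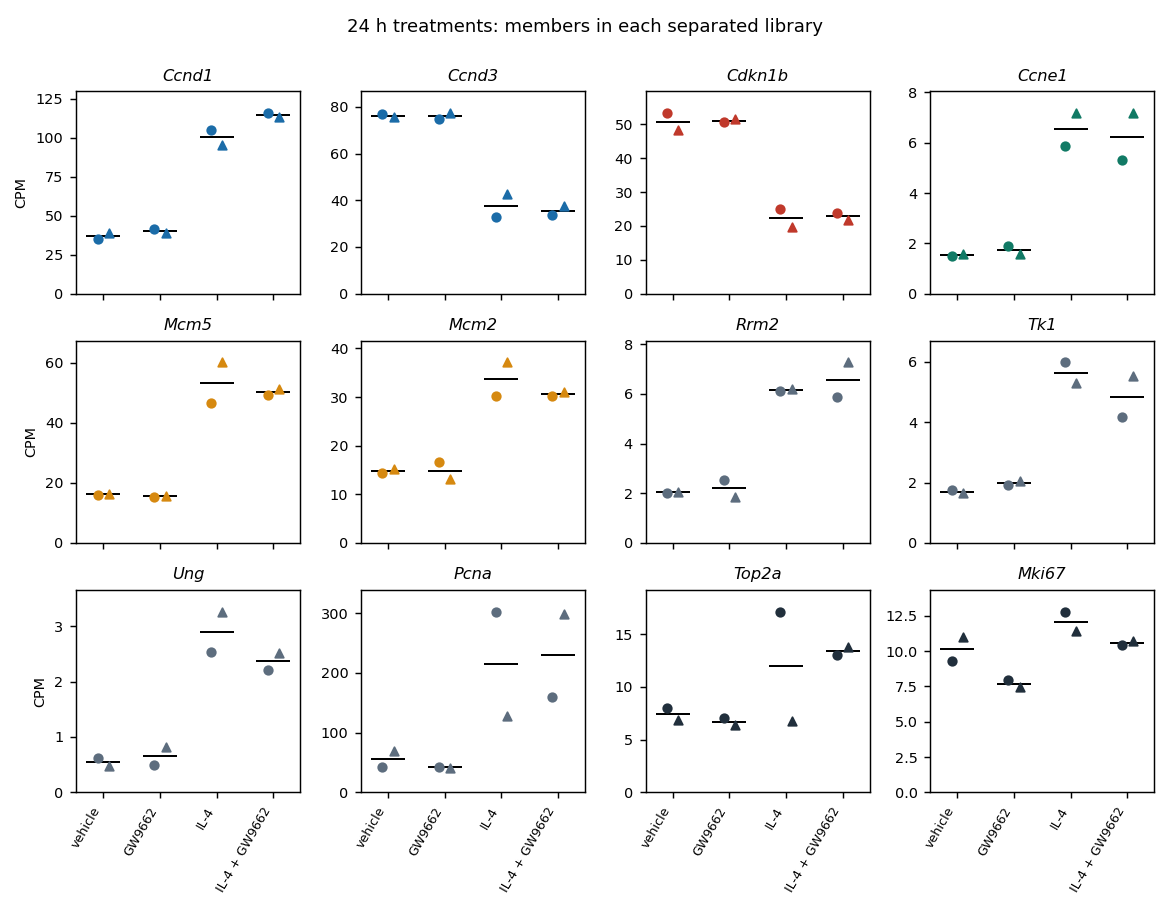
CPM of 12 members in each group of the 24 h experiment: circles are the deeper and triangles the shallower library, black lines the deposited group means, colours the roles. Ccnd1 and Mcm5 lie higher and Cdkn1b and Ccnd3 lower in both IL-4 groups than in both groups without IL-4, while Mki67 stays between 7.44 and 12.8 CPM.

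Counts for other lists of the pathway follow, to be read beside 9.8% of all 11140 tested genes higher and 8.39% lower. The lists were not tested as sets. Myc, which drives growth and cell cycle entry, rose from 3.03 and 4.36 to 57.6 and 71.2 CPM with IL-4 (log2 ratio 3.80, SE 0.27, limma adjusted p = 0.00015). Of 43 further replication genes tested, 5 rose and 0 fell, with Uhrf1 at 1.44 and Rfc5 at 1.27, and 12 had an unadjusted p under 0.05. Of 38 further regulators, 2 rose and 3 fell, the latter being Cdkn1c (-1.46), Mxd1 (-0.88) and Ccng2 (-0.72), which restrain division. Of 49 further mitotic genes, 3 rose and 2 fell, with the condensin gene Ncapg2 at -3.46 (78.5 and 72.8 CPM with vehicle, 6.16 and 5.73 CPM with IL-4). Of 18 genes of the M-CSF receptor and growth signalling, 9 rose and 2 fell, led by Egr2 (5.57), an IL-4 and growth factor responsive transcription factor, and Dusp6 (-2.33), a phosphatase that limits ERK signalling. Of 22 replication-coupled repair genes 3 rose, with Rmi2 at 2.55, and of 23 p53 target and quiescence genes 5 rose and 3 fell.

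The count of members called with IL-4 alone was 18 of 38 without group weights, where the IL-4 group has a weight of 0.212 in the fit used here. It also depended on single libraries: it was 6 of 38 without either vehicle library, 4 without the deeper IL-4 library and 3 without the shallower one. Summed markers of neutrophils and their precursors (7 of 8 listed genes found) were lower alongside, at 502 and 694 CPM with vehicle and 340 and 274 CPM with IL-4, and their part in the result was not tested. Of the precursor genes, Mpo was not lower (means of 33.4 CPM with vehicle and 37.3 CPM with IL-4), while Elane was (10.3 and 7.58 CPM).

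No member passed a test of GW9662. Against vehicle, 0 of 36 tested members passed (0% of all genes, 257 of 10938 at an unadjusted p under 0.05), while 1 member had an unadjusted p below 0.05 and limma-voom gave 0. Added to IL-4, it gave 0 of 39 members by both tools (0% of all genes, 1 of 10867 at an unadjusted p under 0.05) and 0 members at an unadjusted p under 0.05. The difference of the IL-4 response with and without GW9662 passed for 0 of 39 members (0% of all genes, 13 of 11232 at an unadjusted p under 0.05), again 0 at an unadjusted p under 0.05 and by limma-voom. Ccnd1 read 41.6 and 39.0 CPM with GW9662 and 116 and 113 CPM with IL-4 and GW9662, overlapping neither group without IL-4. In each test of GW9662 fewer genes had an unadjusted p under 0.05 than chance alone would give. The shortfall was largest in the tests that use the IL-4 group, which has a weight of 0.212. Their p-values ran high, so 0 calls there cannot decide whether GW9662 had an effect. A p that misses the threshold does not show that the responses are alike, and the difference of the Ccnd1 response had a log2 value of 0.08 (SE 0.18).

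The effect of IL-4 was also measured with GW9662 present in both arms. Of 39 members tested, 24 rose and 3 fell, against 26.3% higher and 25.1% lower of all 11130 genes (51.4% called). The comparison shares no library with the one of IL-4 against vehicle. By role, 7 of 8 licensing genes and 6 of 7 genes of the fork and nucleotide group rose, and 5 of 12 mitotic genes rose with 0 falling. Mcm5 was at 15.4 and 15.8 CPM with GW9662 and at 49.1 and 51.1 CPM with IL-4 and GW9662 (log2 ratio 1.62, SE 0.07, limma adjusted p = 2.1e-06). Pcna passed here, at 42.9 and 41.0 against 159 and 299 CPM (2.42, SE 0.28, limma adjusted p = 0.00031), with the 2 IL-4 libraries of unlike counting kind.

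Among the mitotic genes, Top2a rose from 7.03 and 6.36 to 13.04 and 13.8 CPM (log2 ratio 0.91, SE 0.15) and Mki67 from 7.98 and 7.44 to 10.4 and 10.7 CPM (0.41, SE 0.10, limma adjusted p = 0.0097). The falling members were Cdkn1b (-1.13), Ccnd3 (-1.08) and Cdkn2c (-0.25), the inhibitor p18. Myc rose again (3.66, SE 0.12). Without group weights 15 of 39 members passed, against 18 of 38 for IL-4 without GW9662, so the order of the 2 counts turned. The summed neutrophil markers were 736 and 584 CPM with GW9662 and 271 and 370.06 CPM with IL-4 added, a move in the same direction as without the antagonist, whose part was not tested. Mpo was again not lower (means of 37.2 CPM with GW9662 and 39.2 CPM with IL-4 added), while Elane was (11.2 and 6.88 CPM).

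In wild-type cells the first 3 h of IL-4 lowered licensing and other replication genes, raised Cdkn1a and lowered Cdkn1b. Of 40 members, 19 fell and 2 rose, while 25.1% of all 11345 genes were lower and 24.7% higher (49.8% called). The median log2 ratio was -0.28 over the members and -0.006 over all genes. Both E2F factors fell, as did 2 of 3 cyclin E group genes, 6 of 8 licensing genes, 3 of 7 of the fork and nucleotide group and 4 of 12 mitotic genes. Cdkn1a and Cdk4 were the genes that rose.

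Cdkn1a, the inhibitor p21, stood at 231 and 220.5 CPM in wild-type controls and at 705 and 749 CPM after 3 h. The log2 ratio was 1.68 (SE 0.07, n = 2 per group, limma adjusted p = 1.0e-11). The other inhibitor went the other way: Cdkn1b was at 68.6 and 63.8 CPM and fell to 27.0 and 27.4 CPM (-1.25, SE 0.08, limma adjusted p = 2.4e-09). Ccnd1 stayed in range, at 320 and 296 against 305 and 343 CPM (0.07, SE 0.13, limma adjusted p = 0.68).

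Licensing genes fell to different extents. Cdc6, which loads the helicase, went from 32.4 and 29.3 to 14.7 and 16 CPM (log2 ratio -0.96, SE 0.13, limma adjusted p = 1.7e-05). Its partner Cdt1 went from 90.04 and 84.6 to 45.6 and 46.1 CPM (-0.91, SE 0.08, limma adjusted p = 1.5e-07). Mcm4 (-0.69), Mcm3 (-0.56), Mcm6 (-0.44) and Mcm7 (-0.43) fell less, and Mcm2 (-0.18) and Mcm5 (-0.17) did not pass. E2f2, an activating E2F, went from 70.6 and 62.4 to 34.05 and 44.4 CPM (-0.75, SE 0.11), and E2f1 fell by 0.38 (SE 0.09).

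The mitotic genes that fell in wild-type cells were Spdl1, which recruits dynein to kinetochores, the checkpoint kinase gene Bub1 (-0.55, SE 0.11), Mki67 (-0.53, SE 0.11) and Top2a (-0.45, SE 0.11). Spdl1 fell from 39.9 and 38.6 to 19.6 and 22.5 CPM (log2 ratio -0.87, SE 0.10, limma adjusted p = 1.3e-06). Mki67 read 618 and 574 CPM in controls and 359 and 465 CPM after 3 h, without overlap. Corrected for transcript length, Mki67 no longer passed (-0.28, limma adjusted p = 0.065). Ccnb2, Cdk1, Aurka and Plk1 did not pass, with log2 ratios of -0.19, -0.05, -0.03 and 0.08.

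In knockout cells the first 3 h lowered 9 members and raised 4 of 40, while 22.8% of all 11208 genes were lower and 21.4% higher (44.2% called). The share of members that fell was near that of all genes. All 9 were among the 19 of the wild type, which were measured in other libraries: Ccnd3, Cdkn1b, E2f1, E2f2, Cdc6, Cdt1, Mcm3, Mcm4 and Cdca7. Such overlap was not counted over all genes. Cdkn1a rose from 299 and 291 to 1064 and 948 CPM (log2 ratio 1.76, SE 0.07, limma adjusted p = 7.7e-12). Cdkn1b fell from 60.9 and 59.7 to 28.9 and 24.7 CPM (-1.14, SE 0.08, limma adjusted p = 1.0e-08). Without the deeper knockout library of the 3 h group 8 members passed, and without group weights 7.

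Of 12 mitotic genes in the knockout, 0 fell and 2 rose, Plk1 (0.36, SE 0.10) and Aurkb (0.30, SE 0.11), while 2 had an unadjusted p below 0.05 and limma-voom gave 0 lower. Spdl1 read 29.6 and 26.5 CPM in knockout controls and 26.8 and 29.3 CPM after 3 h (log2 ratio 0.00, SE 0.10). The test of the difference of the first response between genotypes passed for Spdl1 alone of 40 members (0.0261% of all 11494 genes called, 0.0087% with the larger ratio in knockout and 0.0174% with the smaller), with a log2 difference of 0.87 (SE 0.14, limma adjusted p = 0.037). It did not pass by limma-voom (adjusted p = 0.055) or without group weights (0.42). Of the 8 libraries involved, leaving out any of 6 ended the call (limma adjusted p from 0.083 to 0.27), while it passed without the shallower wild-type 3 h library (0.013) and without the deeper knockout control (0.049). For Bub1, Mki67 and Top2a the differences were 0.60, 0.57 and 0.52 with limma adjusted p of 0.27, 0.26 and 0.28, so a difference between genotypes was not shown for these 3. Of all 11494 genes 1436 had an unadjusted p under 0.05 in this test, with a median difference of -0.021. Of the 40 members 7 did, 6 of them mitotic, and all 12 mitotic differences were above 0. Knockout controls already lay lower for these genes than wild-type controls.

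**Figure D2:**
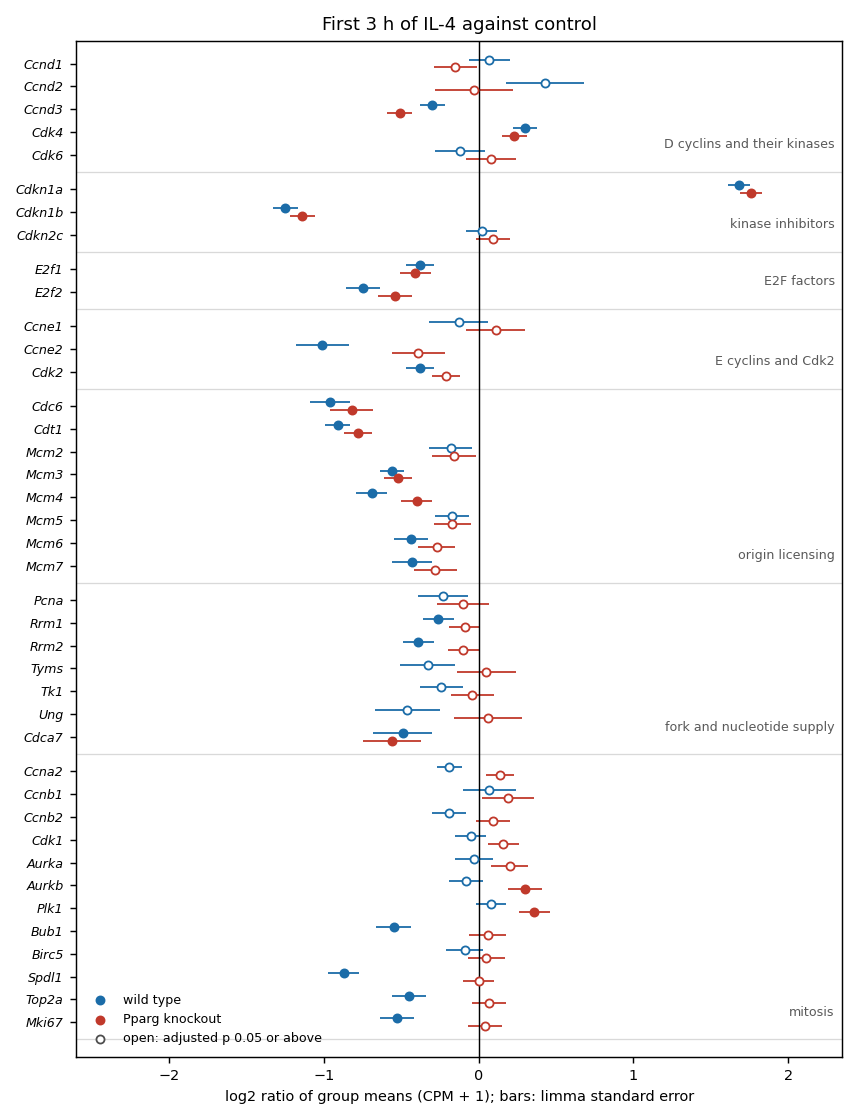
Log2 ratios (CPM + 1) of the first 3 h of IL-4 against control for all 40 members by role, wild type in blue and knockout in red, with limma standard errors as bars and open points where the adjusted p is 0.05 or above. Cdkn1a lies at 1.68 and 1.76 and Cdkn1b at -1.25 and -1.14, and all 8 licensing genes lie below 0 in both genotypes.

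Among the other genes, Myc rose in both genotypes, with log2 ratios of 2.91 (SE 0.15) in wild type and 2.94 (SE 0.16) in knockout. The inhibitor Cdkn2b (p15) rose by 1.44 and 1.68, and Rb1, which encodes RB itself, fell, at -1.14 and -1.0. Of 45 further replication genes, 27 fell and 2 rose in wild type and 14 fell and 1 rose in knockout, among them Timeless (-0.88 and -0.61) and Rfc1 (-0.87 and -0.52). Of 54 further mitotic genes, 29 fell and 1 rose in wild type and 3 fell and 4 rose in knockout. The test of the difference between genotypes passed for 0 of these 54, with 23 at an unadjusted p under 0.05 and 52 above 0. Of all 11494 genes, 1436 had an unadjusted p that low. Of 23 replication-coupled repair genes, 14 fell and 2 rose in wild type and 6 fell and 3 rose in knockout, with Brca2 at -1.21 and -0.68.

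IL-4 for 24 h followed by 24 h without it left wild-type cells with less mRNA of G1 to S genes than controls. Of 40 members, 18 were lower and 2 higher than in controls, against 7.05% of all 11369 genes lower and 7.41% higher (14.5% called). All 8 licensing genes were lower, with log2 ratios from -1.20 to -0.48. Of the fork and nucleotide group 5 of 7 were lower, of the cyclin E group 2 of 3, of the cyclin D group 2 of 5, and of the E2F factors 1 of 2. Of 12 mitotic genes 1 was higher and 0 lower (1 at an unadjusted p under 0.05, and 0 lower by limma-voom), and the log2 ratios ran from -0.07 to 0.70.

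Ccnd1 read 320 and 296 CPM in wild-type controls and 93.1 and 83.6 CPM after washout (log2 ratio -1.79, SE 0.17, n = 2 per group, limma adjusted p = 2.7e-06). The direction against controls was the reverse of that after 24 h of continuous IL-4 in the other experiment, while the levels reached were near each other. There Ccnd1 read 105 and 95.6 CPM with IL-4 and 35.1 and 39.2 CPM with vehicle. The experiments were normalized separately and their controls lay far apart, so the reversal was not tested. Ccnd2 went from 5.43 and 7.73 to 1.31 and 1.13 CPM (-1.77, SE 0.31, limma adjusted p = 0.001). Ung showed the lowest ratio, from 13.7 and 9.27 to 2.21 and 1.93 CPM (-2.02, SE 0.26, limma adjusted p = 8.5e-05). Cdca7, a Myc and E2F responsive chromatin factor, went from 17.8 and 13.9 to 3.51 and 3.74 CPM (-1.87, SE 0.24, limma adjusted p = 6.3e-05).

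Mcm6 had 341 and 267 CPM in controls and 142.5 and 128 CPM after washout (log2 ratio -1.16, SE 0.14, limma adjusted p = 4.4e-05). Mcm2 had 133 and 119.9 CPM and then 61.3 and 47.5 CPM (-1.20, SE 0.17). The ranges did not meet for any of the 8 licensing genes, while 28.5% of all 11369 genes lay wholly below controls and 27.8% wholly above. Ccne1 (-1.08, SE 0.24), Ccne2 (-0.99, SE 0.21), Cdc6 (-0.94, SE 0.17), Tk1 (-0.82, SE 0.17), Rrm2 (-0.46, SE 0.13) and E2f1 (-0.49, SE 0.12) were lower too. Pcna (-0.93) and Mcm7 (-0.90) were lower in a comparison whose shallower washed-out library counts their reads low. With counting kind as a term they read -0.48 and -0.64, with washed-out cells then read from the deeper library alone.

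Cdkn1a was higher than in controls a day after IL-4 was removed, at 397 and 365 CPM against 231 and 220.5 CPM in controls (log2 ratio 0.75, SE 0.09, limma adjusted p = 2.7e-05). Its level at the end of the pretreatment was not measured in this experiment. In the 24 h experiment Cdkn1a read 360 and 282 CPM with vehicle and 350.4 and 488 CPM with IL-4, overlapping values that did not pass (0.39, SE 0.27, limma adjusted p = 0.41). Cdkn1b read near its controls after washout, with 69.5 and 70.5 CPM against 68.6 and 63.8 CPM (0.08, SE 0.10, limma adjusted p = 0.68). Ccnb2, a B cyclin, was the mitotic gene that was higher, at 138 and 155 against 90.7 and 88.4 CPM (0.70, SE 0.14, limma adjusted p = 0.0024). Mki67 read 618 and 574 CPM in controls and 631 and 637 CPM after washout (0.09, SE 0.13, limma adjusted p = 0.72).

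In knockout cells G1 to S genes were lower after washout too, and more mitotic genes were higher. Of 40 members, 14 were lower and 9 higher, against 10.5% of all 11230 genes lower and 9.59% higher (20.1% called), and 12 in all without group weights. All 14 were among the 18 lower in wild type, an overlap that was not counted over all genes. Ccnd1 went from 342 and 351 to 103 and 174 CPM (log2 ratio -1.32, SE 0.14, limma adjusted p = 3.3e-06) and Mcm6 from 306 and 320.2 to 156.5 and 158.5 CPM (-0.99, SE 0.12, limma adjusted p = 1.8e-05). Ung (-1.28, SE 0.22), Cdca7 (-1.20, SE 0.19) and Ccnd2 (-1.79, SE 0.25) were again the members with the lowest ratios beside Ccnd1.

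Of 12 mitotic genes in the knockout 7 were higher and 0 lower (8 at an unadjusted p under 0.05, and 6 higher and 0 lower by limma-voom). Ccnb2 rose from 93.5 and 78.2 to 150.3 and 144 CPM (log2 ratio 0.77, SE 0.11, limma adjusted p = 0.00014). The Polo kinase gene Plk1 rose from 67.7 and 59.2 to 102 and 112 CPM (0.74, SE 0.10, limma adjusted p = 6.9e-05). Ccnb1 (0.58), Spdl1 (0.50), Aurka (0.48), Birc5 (0.42), the survivin gene, and Aurkb (0.39) rose as well. Cdkn1a was higher, at 515 and 592 against 299 and 291 CPM (0.90, SE 0.07, limma adjusted p = 3.3e-07), and so was Cdkn2c (0.32, SE 0.11).

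No single member was shown to differ in its washout effect between genotypes. Of the 40 differences 38 were above 0, with a median of 0.24 against -0.011 over all genes. All 12 mitotic, all 8 licensing and all 7 fork and nucleotide genes were among the 38. A shift of the members as a set was not tested. The test of the difference passed for 0 of 40 members (0% of all genes, 885 of 11507 at an unadjusted p under 0.05), while 5 members had an unadjusted p below 0.05 and limma-voom gave 0. Without the deeper washed-out wild-type library 3 members passed. The largest differences were for Ung (0.75, SE 0.34), Pcna (0.71, SE 0.26) and Cdca7 (0.66, SE 0.31). With counting kind as a term the difference of Pcna read 0.26 (SE 0.14).

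**Figure D3:**
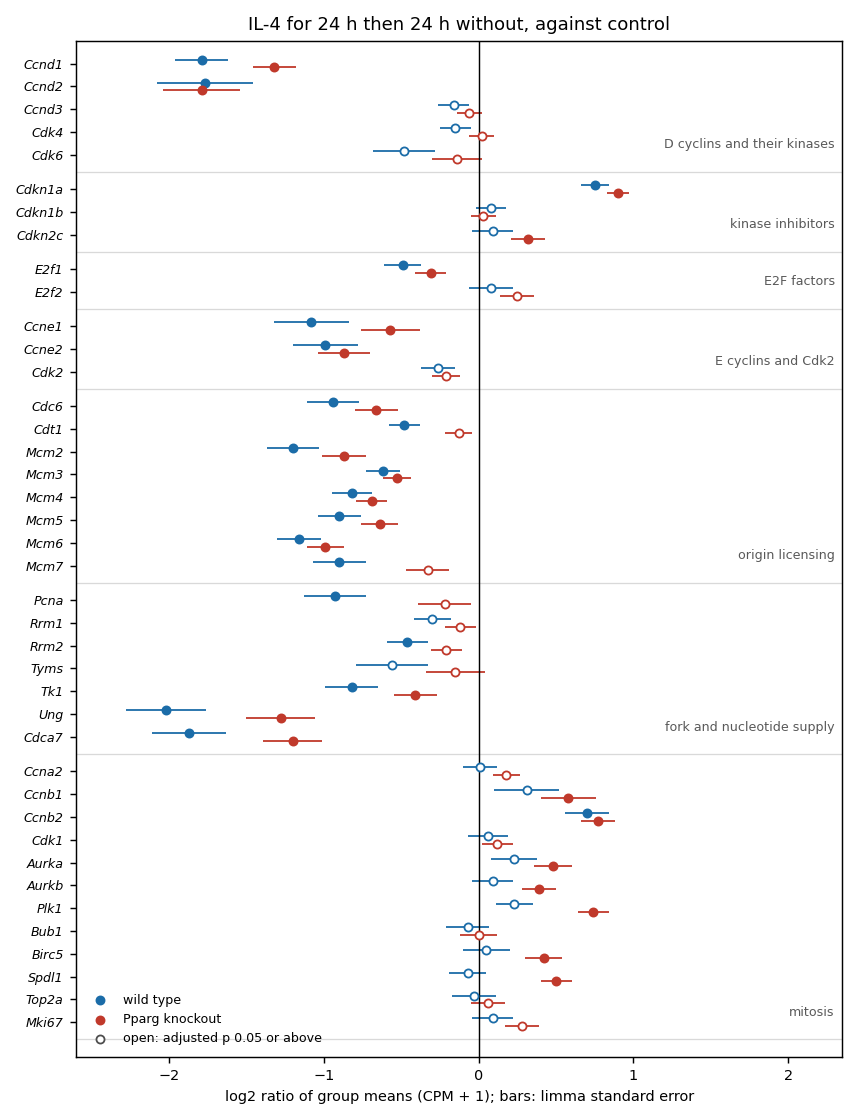
Log2 ratios (CPM + 1) after IL-4 pretreatment and washout against control for all 40 members by role, wild type in blue and knockout in red, with limma standard errors as bars and open points where the adjusted p is 0.05 or above. All 8 licensing and all 7 fork and nucleotide genes lie below 0 in both genotypes, while 11 of 12 mitotic genes in the knockout and 9 of 12 in the wild type lie above 0.

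The replication genes outside the 40 leaned lower in both genotypes. The mitotic genes outside the 40 leaned higher as a set in the knockout only. Of 45 further replication genes, 25 were lower and 0 higher in wild type and 20 lower and 0 higher in knockout, among them Hells (-1.05 and -0.83), with 35 and 27 at an unadjusted p under 0.05. Of 54 further mitotic genes, 7 were higher and 0 lower in wild type and 17 higher and 0 lower in knockout. Among them were Cenpa (0.84 and 0.93), Cdc25b (0.64 and 0.87) and, in the knockout, Cdc20 (1.04). The median log2 ratio of the 54 was 0.01 in wild type, with 28 above 0 and 26 below. In the knockout it was 0.18, with 43 above 0 and 11 below. Of all genes, 7.41% were higher in wild type and 9.59% in knockout. Of 23 p53 target and quiescence genes, to which Cdkn1a does not belong here, 17 were higher in each genotype, with 1 and 0 lower. Phlda3 rose by 1.75 (SE 0.17) and 1.90 (SE 0.14) and Ddit4 by 1.48 and 1.42. Myc was lower, at -0.91 (SE 0.19) in wild type and -0.47 (SE 0.16) in knockout.

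Summed neutrophil markers moved with the pretreatment as well, from 139 and 132 to 59.2 and 51.1 CPM in wild type and from 73.5 and 91.3 to 45.9 and 46.6 CPM in knockout. Their part in the result was not tested. Of their precursor genes, Mpo had means of 4.09 CPM in controls and 2.22 CPM after washout in wild type, and of 2.84 and 0.521 CPM in knockout. Elane was at most 1.04 CPM in the controls of either genotype.

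**Figure D4:**
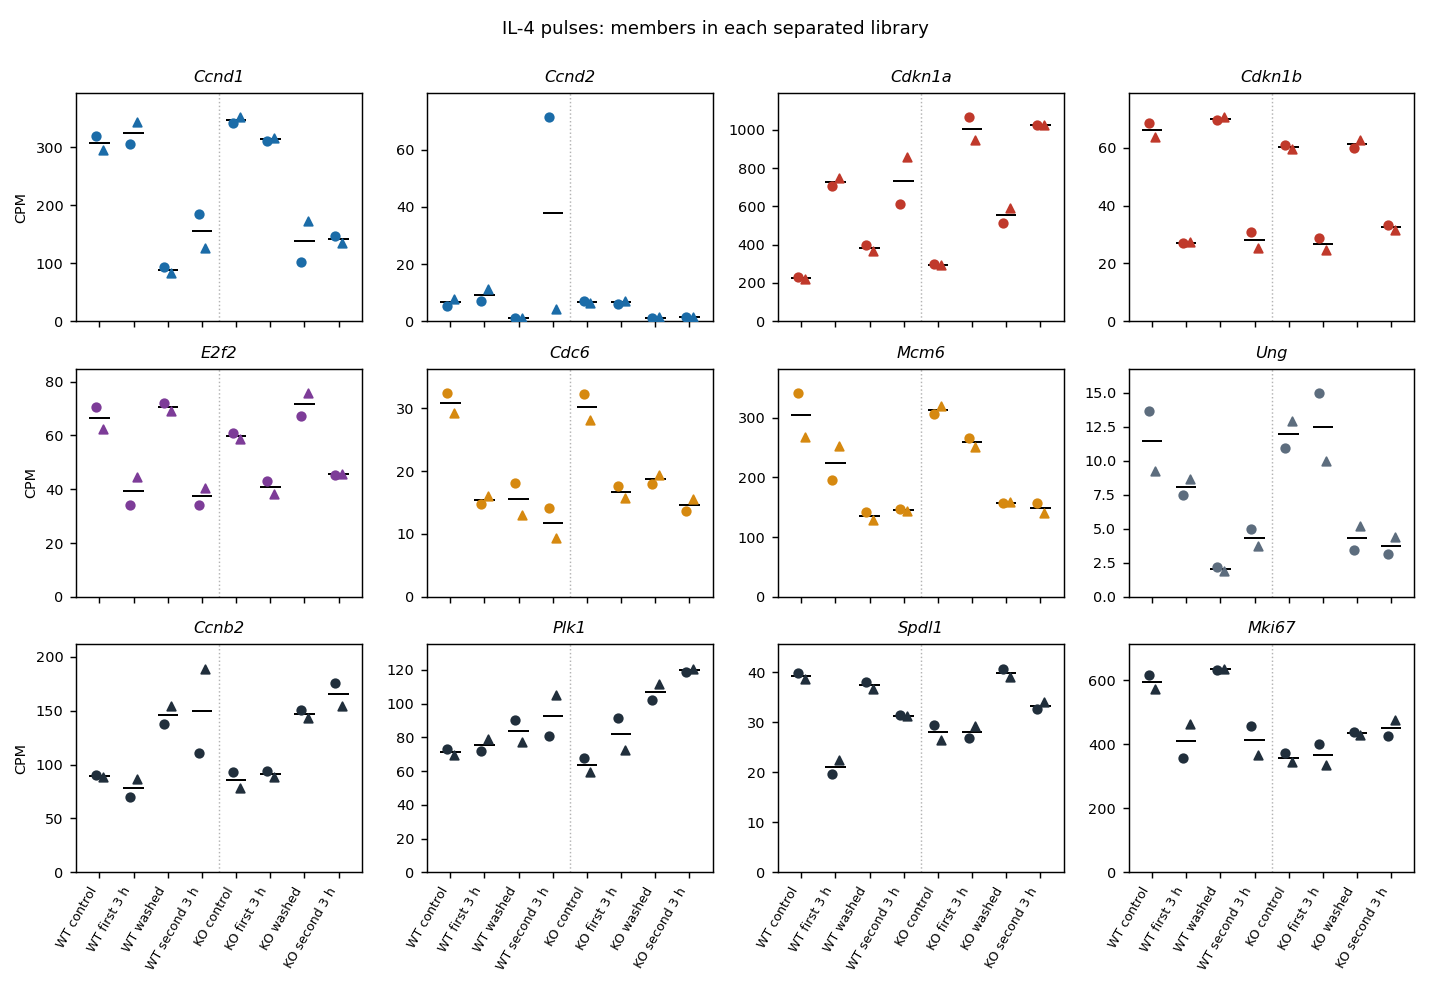
CPM of 12 members in each group of the pulse experiment, wild type (WT) left and knockout (KO) right of the dotted line: circles are the deeper and triangles the shallower library, black lines the deposited group means, colours the roles. Cdkn1b is between 24.7 and 28.9 CPM after the first 3 h of IL-4 and between 59.7 and 70.5 CPM in control and washed-out cells, while Ccnd1 and Mcm6 stay low in all 4 pretreated groups.

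A second 3 h of IL-4 was read mainly from the knockout, where the libraries are alike. Of 40 members, 5 fell and 2 rose against washed-out cells, while 16.5% of all 11282 genes were lower and 19.3% higher (35.8% called). Cdkn1a rose again, from 515 and 592 to 1025 and 1024 CPM (log2 ratio 0.89, SE 0.07, n = 2 per group, limma adjusted p = 8.6e-08). Cdkn1b fell again, from 60.1 and 62.8 to 33.3 and 31.7 CPM (-0.90, SE 0.09, limma adjusted p = 4.8e-07). Ccnd3 (-0.70, SE 0.09), E2f2 (-0.64, SE 0.12), Cdt1 (-0.43, SE 0.09) and E2f1 (-0.34, SE 0.10) fell.

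Ccna2, the cyclin of S and G2 phase, was the mitotic gene that rose, from 158 and 161 to 205 and 197 CPM (log2 ratio 0.33, SE 0.09, limma adjusted p = 0.0079), and it did not pass without the deeper washed-out library (limma adjusted p = 0.057). Of 8 licensing genes only Cdt1 fell, and Cdc6, already at 17.9 and 19.4 CPM after washout, read 13.6 and 15.6 CPM (-0.34, SE 0.14, limma adjusted p = 0.075). With counting kind as a term 11 members passed. Against the first 3 h in the knockout, the second 3 h left 10 members lower and 7 higher of 40, with 10.1% of all 11190 genes lower and 12.9% higher (23% called). The lowest were Ccnd2 (-1.54), Ung (-1.50) and Ccnd1 (-1.15), and the highest Ccnb2 (0.85), Ccnb1 (0.83) and Plk1 (0.54). Cdkn1a reached the same level in both, at 1064 and 948 and at 1025 and 1024 CPM (0.03, SE 0.07). This count fell to 11 without the deeper library of the first 3 h and to 7 without group weights.

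In wild type, the second 3 h rested on 2 unlike libraries, which the fit gave a weight of 0.0792. Of 40 members, 2 rose and 1 fell against washed-out cells (4.93% of all 11958 genes called, 2.68% higher and 2.25% lower). Cdkn1b went from 69.5 and 70.5 to 30.8 and 25.4 CPM (log2 ratio -1.29, SE 0.27, limma adjusted p = 0.013) and Cdkn1a from 397 and 365 to 612 and 856.5 CPM (0.95, SE 0.23, limma adjusted p = 0.031). Ccnd2 passed, with a log2 ratio of the group means of 4.13, but read 71.2 CPM in the library with fibroblast RNA and 4.28 CPM in its partner. Ccnd2 read 1.25 without the library with fibroblast RNA, and 5.02 from that library alone. In the same fits Cdkn1a read 1.17 and 0.68, and Cdkn1b -1.42 and -1.16. With no filter on low values neither Cdkn1a nor Ccnd2 passed (limma adjusted p = 0.12 and 0.15), while Cdkn1b did (limma adjusted p = 0.03). Against the first 3 h, 0 of 40 members passed (0.311% of all 11880 genes called), while 2 had an unadjusted p below 0.05 and limma-voom gave 0. Without group weights the second 3 h gave 10 members against washed-out cells and 5 against the first 3 h, and with counting kind as a term 3 and 2.

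Knockout controls differed from wild-type controls in mitotic genes. Of 40 members, 7 were lower and 1 higher, against 10.6% of all 11280 genes lower and 7.83% higher (18.5% called). Of 12 mitotic genes 6 were lower and 0 higher (6 at an unadjusted p under 0.05, and 0 higher by limma-voom), of 8 licensing genes 0 passed (1 at an unadjusted p under 0.05, 0 by limma-voom). Mki67 read 618 and 574 CPM in wild type and 372 and 344 CPM in knockout (log2 ratio -0.73, SE 0.10, n = 2 per group, limma adjusted p = 0.00013). Bub1 (-0.53, SE 0.11), Spdl1 (-0.47, SE 0.09), Top2a (-0.44, SE 0.11) and Ccna2 (-0.30, SE 0.08) were lower and did not overlap with wild type. Cdkn1a was higher, with 299 and 291 against 231 and 220.5 CPM (0.39, SE 0.07, limma adjusted p = 0.00081).

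Ccnb1 (-0.97) and Pcna (-0.98) were lower too, and in these 2 genes counting kind and genotype cannot be told apart within the control groups. Counting kind as a term can be estimated here only from the 2 unlike libraries of the washed-out wild-type group. With it, Pcna read 0.11 and Ccnb1 -0.18, and 0 of 40 members passed. Mki67 then read -0.75 (SE 0.17, limma adjusted p = 0.054) and Bub1 -0.62 (SE 0.20). Without group weights 2 members passed, and without the deeper wild-type control library 5. In a further 54 mitotic genes 22 were lower and 0 higher. Genes with the longest transcripts also read higher in wild-type than in knockout controls (medians of 0.092 and 0.096 against 0.027 and 0.0044). Summed neutrophil markers were lower in the knockout controls, at 73.5 and 91.3 against 139 and 132 CPM, and their part was not tested.

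After washout, 1 member was higher and 1 lower in knockout than in wild type (3.3% of all 11347 genes called, 1.37% higher and 1.93% lower). Cdkn1a was higher, at 515 and 592 against 397 and 365 CPM (log2 ratio 0.54, SE 0.09, limma adjusted p = 0.0051), and Mki67 lower, at 439 and 429.5 against 631 and 637 CPM (-0.54, SE 0.14, limma adjusted p = 0.043). Corrected for transcript length Mki67 did not pass (-0.31, limma adjusted p = 0.24). The count moved with single libraries, to 0 without the shallower washed-out knockout library, 5 without the deeper one, 4 without the shallower wild-type library and 1 without the deeper. With counting kind as a term 16 members passed, 13 of them higher, with wild type then read from its shallower washed-out library alone.

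**Figure D5:**
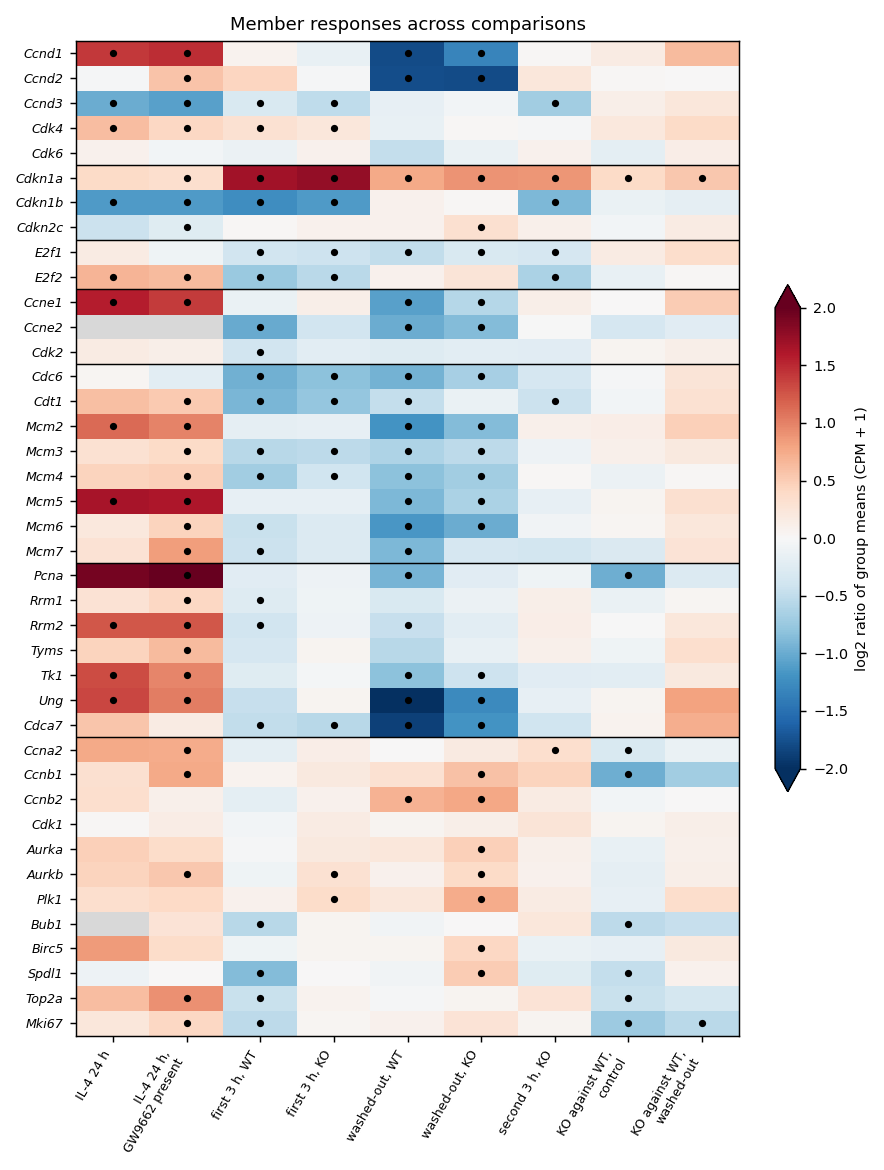
Log2 ratios (CPM + 1) of the 40 members (rows, with lines between roles) in 9 comparisons (columns; WT wild type, KO knockout), with black dots where the adjusted p is under 0.05 and grey where a member was not tested. Licensing genes are above 0 after 24 h of IL-4 with GW9662 present except Cdc6 at -0.21, below 0 after the first 3 h and after washout, and between -0.11 and 0.14 for Mcm2 to Mcm6 in knockout against wild-type controls.

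Some members passed 2 tests at most. Cdk6, which like Cdk4 pairs with D cyclins, passed no test of these comparisons, and lay between 2.81 and 4.61 CPM in the 24 h experiment and between 3.18 and 12.3 CPM in the pulse experiment. Cdk1, the kinase of mitosis, passed none either, with a range of 8.98 to 12.2 CPM in the first and 142.9 to 252 CPM in the second. Cdk2, the kinase partner of cyclin E, passed in 1 comparison, being lower after the first pulse in wild type (log2 ratio -0.38, SE 0.09, limma adjusted p = 0.0022), and the difference between genotypes did not pass (0.17, SE 0.13, limma adjusted p = 0.60). Tyms, which makes thymidylate, passed in 1 comparison, being higher with IL-4 and GW9662 than with GW9662 (0.63, SE 0.14), at 1.54 and 1.64 against 2.93 and 3.10 CPM. Rrm1, the large subunit of ribonucleotide reductase, rose in that comparison (0.42, SE 0.08) and fell after the first wild-type pulse (-0.26, SE 0.10), while its partner Rrm2 had ratios of 1.24 and -0.39. Without group weights neither Tyms nor Rrm1 passed in these comparisons.

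Ccne2, the second cyclin E gene, had 3 to 8 reads per library in the 24 h experiment and was not tested there. In wild-type cells of the pulse experiment it read 22.01 and 18.1 CPM in controls, 8.02 and 10.9 CPM after the first 3 h (log2 ratio -1.01, SE 0.17, limma adjusted p = 9.3e-05) and 10.6 and 8.51 CPM after washout. The knockout controls had 15.2 and 16.0 CPM, the cells after the first 3 h 12.5 and 10.9 CPM (-0.39, SE 0.17, limma adjusted p = 0.075) and the washed-out cells 7.54 and 8.59 CPM (-0.87, SE 0.17, limma adjusted p = 0.0018). The difference of the first responses between genotypes did not pass (0.62, SE 0.24, limma adjusted p = 0.34). Without group weights Ccne2 passed neither after the first wild-type pulse (limma adjusted p = 0.057) nor after washout in either genotype (0.14 and 0.23). Ccne1 did not pass after the first pulse in either genotype (-0.13 and 0.11) and was lower after washout in both.

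Across the conditions, Cdkn1b fell in each of the 6 comparisons of cells in IL-4 with matched cells out of it, with log2 ratios from -1.29 to -0.90. These 6 comparisons share no library, and the one of the second wild-type pulse did not pass without the library with fibroblast RNA (-1.42, limma adjusted p = 0.054) or without its partner (-1.16, limma adjusted p = 0.10). Ccnd1, Mcm2 and Mcm5 rose over 24 h in IL-4 and were lower than in controls a day after its removal, in separate experiments whose mitotic genes stood at different levels. The controls differed in Ccnd1 too, at 35.1 and 39.2 CPM with vehicle and 320 and 296 CPM in wild-type controls of the pulse experiment.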

How the data were processed

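Poly-A RNA of 24 samples was sequenced, per the labels' protocols. The genome build mm10, Cufflinks 2.0.2 and TopHat2 2.0.7 are named, without roles, per the submitters' processing notes; how genes were counted, and whether strand was used, is not given in the sources used here. The deposited values are a signal per gene and group, the authors' mean of CPM over 2 samples, and the 2 experiments were normalized separately. Each mean is a sum of 2 whole read counts times 2 fixed steps, so the counts of both libraries were recovered: 99.5% of 171808 values above 0 had 1 solution, every member value among them. Where a value was unresolved, the group mean stood in for both libraries in the tests. Genes with such values stayed out of the estimate of the group weights.

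Tests were made in R 4.3.3 with limma 3.58.1 (trend, 1 weight per group) on log2(CPM + 1), over genes with a group mean of at least 1 CPM in the groups compared, with Benjamini-Hochberg adjustment over all of them and a threshold of 0.05. Log2 ratios are of the deposited means plus 1, which understates the change of low genes. SE and p-values come from the fit on the libraries, whose estimate can differ from that ratio where the libraries of a group are unlike. The depth of 5444413 to 29151478 reads sets 3 reads at 0.105 to 0.526 CPM; these are counting limits only. The procedure was tested on simulated data. Alternatives were another pseudocount, no filter on low values, no weights, limma-voom, median-ratio scaling, counting kind as a term, each library left out and, chosen after seeing the data, a correction for transcript length.

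Members were named past the threshold, up to 15 each way per comparison with the largest change, and from the lists of regulators, replication, mitosis, repair, p53 and quiescence, and M-CSF signalling genes up to 4 each way. The members and lists were chosen with earlier results of these data known. Promoter windows came from RefSeq.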

Additional observations from a re-analysis of the deposited data

Results flagged for a closer look

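The response of Spdl1 to the first 3 h of IL-4 passed the test of the difference between the genotypes. The log2 ratio was -0.87 in wild type and 0.00 in knockout, a difference of 0.87 (limma adjusted p = 0.037), and both wild-type 3 h libraries lay below both controls while the knockout libraries overlapped. It did not pass by limma-voom (adjusted p = 0.055), without group weights (limma adjusted p = 0.42) or when any of 6 of the 8 libraries was left out (limma adjusted p from 0.083 to 0.27).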

How the results depend on the processing

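No paired analysis was possible because the replicate numbers of the labels could not be tied to the separated libraries. Single members past the threshold kept their direction under every setting listed except Pcna in knockout against wild-type controls, which read 0.11 with counting kind as a term. Counts of members called moved as follows, with the count as reported first. Without group weights, IL-4 at 24 h went from 11 to 18, IL-4 with GW9662 against GW9662 from 27 to 15, the first pulse in knockout from 13 to 7, washout in knockout from 23 to 12, the second against the first pulse from 17 to 7 in knockout and from 0 to 5 in wild type, the second wild-type pulse from 3 to 10, and knockout against wild type from 8 to 2 in controls and from 2 to 0 after washout. The difference of first responses went from 1 to 0 without weights and by limma-voom. With no filter on low values the second wild-type pulse gave 1 and washed-out knockout against wild type 1, which the length correction also gave. With counting kind as a term, the second knockout pulse gave 11, the second against the first wild-type pulse 2, knockout against wild-type controls 0 and washed-out cells 16. In the pulse experiment that term rests on the washed-out wild-type group alone, where the libraries are of both kinds. Leaving out each library gave 3 to 6 for IL-4 at 24 h, 19 to 27 for IL-4 with GW9662, 14 to 26 and 8 to 12 for the first pulse in wild type and knockout, 15 to 20 and 16 to 18 for washout, 0 to 4 and 6 to 8 for the second pulse, 11 to 13 for the second against the first in knockout, 5 to 8 and 0 to 5 for knockout against wild type in controls and washed-out cells, and 0 to 3 for each difference between genotypes. With 1 library left in a group, its spread is assumed from the other groups. Of single values, 475 still passed across these fits and 141 did not; without group weights 90 still passed and 63 did not. Depth limits genes near 1 CPM.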
